A study of Mus musculus with 20 samples.

Results

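Expression of 9 genes commonly used as markers of the thalamus was examined in the hippocampus of mice infused with human small RNAs (sRNAs). The genes were Tcf7l2, Lef1, Rora, Zic1, Slc17a6, Ntng1, Prkcd, Rgs16 and Plekhg1. They were chosen by gene symbol, and each matched 1 row of the 25190 genes in the count table. All 9 genes were measured above a count of 0 in all 20 libraries, so none was lost to a filter on low values.

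The study asked whether sRNAs from the hippocampus of patients with schizophrenia alter cognition and gene expression when given to mice. All mice were wild-type C57BL/6JOlaHsd males of 4 months, with cannulas placed on both sides in the CA1 field of the dorsal hippocampus. Vehicle mice received artificial cerebrospinal fluid without sRNAs. A pool of sRNAs from control individuals was given to Control mice. Separate cohorts of patients supplied the sRNAs given to Pool 1 mice and to Pool 2 mice. Each group held 5 mice, with 1 library per mouse, and tissue was taken 24 hours after the final behavioural test. The sRNAs were human and pooled over people, so the mice of a group are replicates of the infusion and not of the donors. The series describes the tissue as CA1, whereas the sample labels call it hippocampal brain tissue. Markers of CA1 pyramidal neurons summed to between 481 and 1279 CPM (counts scaled to library size) in the 20 libraries, and those of dentate granule cells to between 261 and 711 CPM.

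The thalamus lies directly beneath the dorsal hippocampus, with the third ventricle, the habenula and the choroid plexus close by. Its excitatory relay neurons release glutamate that is loaded into vesicles by the transporter encoded by Slc17a6 (VGLUT2), while most pyramidal neurons of the adult hippocampus use the related transporter Slc17a7. Tcf7l2 and Lef1 encode transcription factors of the Wnt pathway that remain active in adult thalamic neurons, and Rora encodes a nuclear receptor that is abundant there. None of the 9 genes is restricted to the thalamus. Zic1 is also expressed in the meninges and septum, Lef1 in endothelial cells of the brain, and Rora in astrocytes and several kinds of neuron.

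All 9 genes are protein coding. In the mouse genome (GRCm38), Lef1 and Ntng1 share chromosome 3, Rora and Zic1 share chromosome 9, and each other gene has its own chromosome. Tcf7l2 spans chr19:55741820-55933654 on the forward strand, Lef1 chr3:131110471-131224356 on the forward strand, and Rora chr9:68653786-69388246 on the forward strand. Zic1 spans chr9:91358058-91365810 on the reverse strand. Slc17a6 spans chr7:51622006-51671119 on the forward strand, and Ntng1 spans chr3:109780040-110144011 on the reverse strand. Prkcd spans chr14:30595354-30626210 on the reverse strand, Rgs16 chr1:153740349-153745468 on the forward strand, and Plekhg1 chr10:3740364-3967303 on the forward strand. Exons of Zic1 overlap exons of its neighbour Zic4 on the opposite strand. Exons of Rora, Lef1 and Rgs16 likewise overlap those of the predicted genes Gm15511, Gm43352 and Gm28513. The libraries were stranded, but which strand setting was used in counting is not given in the sources used here, so reads in these overlaps may belong to either gene.

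Promoter sequences (RefSeq, GRCm38.p6, 250 bases before to 50 bases after the annotated start) were compared because the genes varied together across mice. All 9 genes matched an entry. Sequences are shown for Tcf7l2, which followed the other genes most closely by Pearson r, for Zic1, which alone separated Pool 1 from Control, and for Prkcd, which alone held a motif searched for. Capitals mark that motif, and the Tcf7l2, Zic1 and Prkcd windows are chr19:55741560-55741859 (forward), chr9:91365719-91366018 (reverse) and chr14:30626159-30626458 (reverse).
Tcf7l2: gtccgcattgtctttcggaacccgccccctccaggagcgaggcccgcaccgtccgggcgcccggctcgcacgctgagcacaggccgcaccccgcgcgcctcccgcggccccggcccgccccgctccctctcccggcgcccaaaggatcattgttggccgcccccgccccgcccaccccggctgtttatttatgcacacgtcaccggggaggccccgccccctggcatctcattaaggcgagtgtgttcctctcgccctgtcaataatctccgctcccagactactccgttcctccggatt
Zic1: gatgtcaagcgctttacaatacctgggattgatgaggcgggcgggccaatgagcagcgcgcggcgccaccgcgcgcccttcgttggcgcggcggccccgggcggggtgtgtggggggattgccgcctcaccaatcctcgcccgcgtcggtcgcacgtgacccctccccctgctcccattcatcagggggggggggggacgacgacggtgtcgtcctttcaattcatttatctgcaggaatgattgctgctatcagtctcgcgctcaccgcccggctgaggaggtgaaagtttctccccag
Prkcd: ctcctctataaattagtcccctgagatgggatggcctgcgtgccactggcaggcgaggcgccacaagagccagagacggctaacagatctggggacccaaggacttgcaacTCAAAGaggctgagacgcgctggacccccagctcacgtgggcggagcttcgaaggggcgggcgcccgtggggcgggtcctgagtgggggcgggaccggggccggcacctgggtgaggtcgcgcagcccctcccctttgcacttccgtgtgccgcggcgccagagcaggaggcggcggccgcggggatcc
The motifs were CTTTGA, a core recognized by TCF and LEF factors, and AGGTCA, a half-site of nuclear receptors such as that encoded by Rora, each on both strands. CTTTGA was found in 1 of the 9 promoters, that of Prkcd, as its reverse complement starting at position -139 from the start site, against 16.0% of 32851 promoters of this length. AGGTCA was found in 0 of the 9, against 16.3% of all promoters. These are matches of letters within a short window. The windows of Lef1 and Slc17a6 ended in bases that no transcript of their gene in GENCODE M21 held, and that of Plekhg1 lay at an internal start.

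Library totals ranged from 20588280 to 25543939 counts, so depth differed little between mice. The libraries of a group were separate mice by their labels, and counts of every pair within a group differed by more than sampling noise. A pair of libraries stood apart by other cell types. Vehicle replicate 4 had the highest summed level of choroid plexus markers (9234 CPM, from 97.4 CPM in the lowest library), and Pool 2 replicate 1 had the highest level of microglial markers (1129 CPM, from 377 CPM in the lowest). In bulk tissue, fewer cells of a type and less RNA per cell cannot be told apart, and the same holds for higher levels.

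Levels of the 9 genes differed between genes when scaled to the longest transcript. Prkcd had the highest mean over the 20 libraries, 23.2 CPM per kilobase, followed by Ntng1 with 6.20 and Plekhg1 with 6.12 CPM per kilobase. Zic1 (4.61), Slc17a6 (4.04), Rora (3.88) and Rgs16 (3.69 CPM per kilobase) lay close together. Tcf7l2 (2.78) and Lef1 (1.53 CPM per kilobase) had the lowest levels. Neighbours in this order from Ntng1 to Rgs16 differed by less than their spread over libraries, which reached 21.0-fold from lowest to highest for Slc17a6 and was smallest, 3.69-fold, for Plekhg1.

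Few mice carried the high values. The library of Pool 2 replicate 4 had the highest CPM of all 20 libraries for 9 of the 9 genes, and that of Pool 2 replicate 2 the second highest for 8 of them. For Zic1, Pool 2 replicate 2 ranked below Vehicle replicates 1 and 2. Of the 180 values (9 genes in 20 mice), 21 were more than 2 times the gene's median over the 20 libraries. Pool 2 replicate 4 held 9 of these, Pool 2 replicate 2 held 5, and Control replicate 4 held 2, together 16 of 21. The others were 2 in Vehicle replicate 1 (Slc17a6 and Zic1) and 1 each in Vehicle replicate 2 (Zic1), Pool 2 replicate 3 (Tcf7l2) and Pool 2 replicate 5 (Slc17a6). In 13 libraries no gene exceeded 2 times its median, and all 5 Pool 1 libraries were among them. Of the 180 values, 7 were below 0.5 times the median, 4 of them of Slc17a6.

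**Figure D1:**
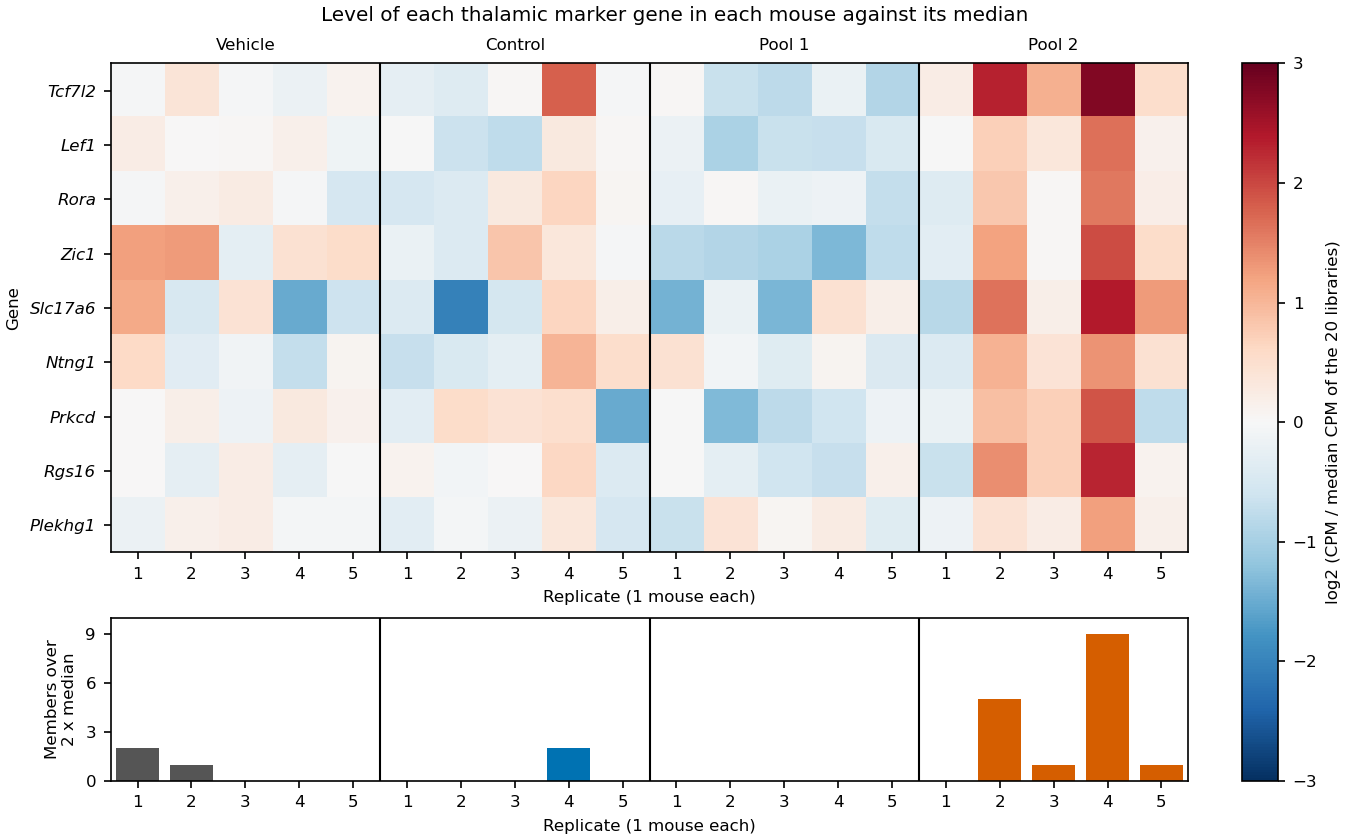
Levels of the 9 thalamic marker genes (rows) in the 20 mice (columns, by group and replicate), as log2 of CPM over the gene's median CPM of the 20 libraries, with bars below counting the genes over 2 times their median in each mouse. Pool 2 replicate 4 is high in all 9 rows, Pool 2 replicate 2 exceeds 2 times the median in 5 rows and Control replicate 4 in 2.

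The size of the excess in these mice differed between genes. In Pool 2 replicate 4, Tcf7l2 reached 6.84 times its median, Slc17a6 5.17 times and Rgs16 4.86 times, whereas Plekhg1 reached 2.33 times. In Pool 2 replicate 2, the highest was Tcf7l2 at 4.97 times its median and the lowest Plekhg1 at 1.36 times. In Control replicate 4, Tcf7l2 was at 3.47 times and Ntng1 at 2.04 times the median, and the other 7 genes were between 1.23 and 1.57 times. All 9 genes exceeded their median in Pool 2 replicates 2, 3 and 4 and in Control replicate 4.

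The mean log2 CPM of the 9 genes was 4.19 ± 0.20 (SD, n = 5) in Vehicle, 4.10 ± 0.44 in Control, 3.73 ± 0.13 in Pool 1 and 4.83 ± 0.85 in Pool 2. The spread between Pool 2 mice thus exceeded that in each other group. Pool 2 ranged from 3.84 in replicate 1 to 6.03 in replicate 4, and replicate 1 ranked 14 of 20 for this mean, among the Control and Pool 1 mice. Pool 2 had the highest group mean CPM for 9 of 9 genes, and Pool 1 the lowest for 8 of 9. Plekhg1 was the exception, with its lowest mean in Control.

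Among the transcription factors, Tcf7l2 had 6.24, 8.27, 6.26, 5.62 and 6.80 CPM in Vehicle replicates 1 to 5. In Control it had 5.32, 4.84, 6.49, 22.1 and 6.23 CPM. The Pool 1 mice had 6.47, 4.04, 3.69, 5.56 and 3.45 CPM, and the Pool 2 mice 7.40, 31.6, 13.3, 43.5 and 9.15 CPM. All 5 Pool 2 values lay above all 5 Pool 1 values, while Control replicate 4 exceeded 3 of the Pool 2 mice.

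Lef1, whose protein shares its DNA-binding domain with that of Tcf7l2, was the gene with the lowest level. It had 6.11, 5.28, 5.37, 5.88 and 4.84 CPM in Vehicle and 5.23, 3.37, 3.13, 6.48 and 5.39 CPM in Control mice. Pool 1 had 4.69, 2.73, 3.30, 3.28 and 3.82 CPM, and Pool 2 had 5.26, 8.61, 6.62, 16.4 and 5.80 CPM. Again every Pool 2 mouse was above every Pool 1 mouse, and Pool 2 overlapped with Control and Vehicle.

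Rora had 37.1, 42.1, 45.3, 36.9 and 26.7 CPM in Vehicle and 27.0, 28.8, 46.5, 59.2 and 39.8 CPM in Control mice. The Pool 1 values were 32.2, 39.0, 33.2, 34.2 and 23.1 CPM, and the Pool 2 values 29.2, 66.5, 39.2, 115 and 43.3 CPM. Only replicates 2 and 4 of Pool 2 lay above the highest Control value, and the 4 groups overlapped.

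Zic1, a zinc finger transcription factor, had a pattern of its own. Vehicle mice had 46.5, 47.7, 16.1, 27.1 and 28.8 CPM, and Control mice 17.3, 14.9, 35.2, 25.1 and 19.2 CPM. Pool 1 mice had 11.3, 10.7, 10.2, 7.71 and 11.6 CPM, and Pool 2 mice 15.8, 45.9, 20.3, 76.5 and 28.7 CPM. The 5 Pool 1 libraries were the 5 lowest of the 20, below every mouse of the 3 other groups. Zic4, which shares exonic bases with Zic1, was also lowest in Pool 1, with a mean of 2.69 CPM against 4.86 CPM in Control and 6.68 CPM in Pool 2.

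Slc17a6, the vesicular glutamate transporter, varied most from mouse to mouse. It had 28.1, 9.09, 17.3, 4.48 and 8.24 CPM in Vehicle and 9.52, 3.13, 8.88, 20 and 14.4 CPM in Control mice. Pool 1 had 4.73, 11.1, 4.90, 17.6 and 14.4 CPM, and Pool 2 had 7.18, 39.6, 14.5, 65.9 and 30.8 CPM. Replicates 2, 4 and 5 of Pool 2 were above every mouse of the other groups, and replicates 1 and 3 lay within their range.

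Ntng1 encodes netrin-G1, a membrane-anchored protein of thalamocortical axons. Its values were 44.7, 23.1, 27.4, 18 and 31.4 CPM in Vehicle and 18.2, 21.6, 24.2, 60.0 and 42.7 CPM in Control. They were 40.5, 27.9, 23.1, 31.1 and 21.7 CPM in Pool 1 and 22.2, 60.5, 39.1, 75.2 and 40.2 CPM in Pool 2. The groups overlapped, and Control replicate 4 was within 1 CPM of Pool 2 replicate 2.

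Prkcd encodes protein kinase C delta, a kinase of sensory thalamic nuclei. Vehicle mice had 58.1, 65.6, 51.8, 70.7 and 62.7 CPM, and Control mice 46.0, 85.2, 78.4, 82.3 and 20.4 CPM. Pool 1 mice had 57.2, 23.0, 33.4, 38.3 and 52.2 CPM, and Pool 2 mice 50.5, 108, 94.4, 212 and 34.3 CPM. Replicates 2, 3 and 4 of Pool 2 were above all other mice, whereas replicate 5 was below 4 of the 5 Control mice.

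Rgs16, a regulator of G protein signalling, ranged from 5.70 to 7.95 CPM in Vehicle, from 5.13 to 10.5 CPM in Control and from 4.22 to 7.64 CPM in Pool 1. The Pool 2 mice had 4.30, 18.1, 11.2, 33.3 and 7.35 CPM. Pool 2 replicate 1 was thus the second lowest and replicate 4 the highest of the 20 libraries for this gene. Plekhg1, which encodes a guanine nucleotide exchange factor for small GTPases, ranged from 36.9 to 49.1 CPM in Vehicle, from 29.4 to 52.8 in Control, from 26.5 to 56.0 in Pool 1 and from 37.6 to 97.7 CPM in Pool 2. Without replicate 4 the Pool 2 values of Plekhg1 reached 56.9 CPM, close to the highest Pool 1 value.

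**Figure D2:**
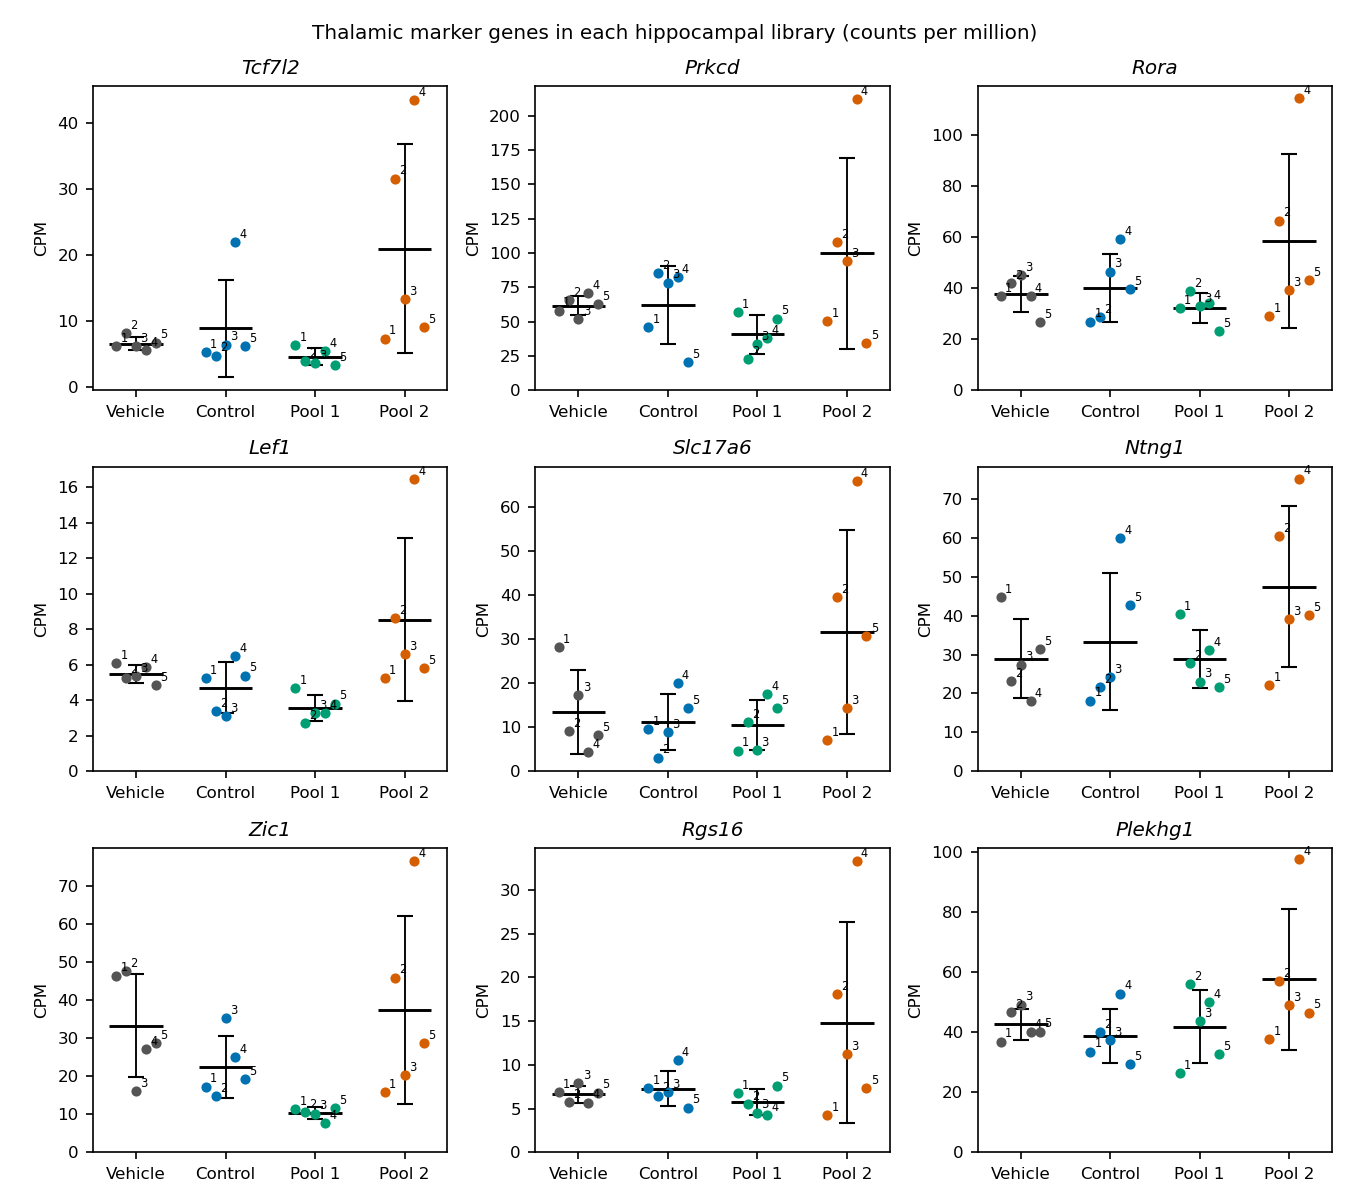
CPM (counts scaled to library size) of each of the 9 genes in the 5 mice of Vehicle, Control, Pool 1 and Pool 2, each point 1 mouse labelled with its replicate number, with the group mean (bar) and SD (whiskers). Pool 2 replicates 4 and 2 rise above the other groups in most panels, and the 5 Pool 1 mice lie lowest for Zic1.

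The groups were compared with the edgeR quasi-likelihood test over all 25190 genes, and a gene was called upregulated or downregulated at a log2 fold change of at least 0.3 in size and an unadjusted p-value under 0.05. Pool 1 and Pool 2 were each compared with the same 5 Control libraries, so these comparisons are not independent, and each shares its Pool libraries with the comparison of the pools. At an adjusted p-value (Benjamini-Hochberg) under 0.05, edgeR called 0% of all genes in each of the 4 comparisons, and none of the 9. DESeq2 called 0.0455% of the genes it gave an adjusted p in Pool 1 against Control, 0.0889% in Pool 2 against Control and 0% in Control against Vehicle at this threshold. None of the 9 was among these. In Pool 2 against Pool 1, DESeq2 called 0.568%, and 3 of the 9 were among them.

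In Pool 2 against Control, 5 of the 9 genes were upregulated and none downregulated, where 5.20% of all genes were upregulated and 1.01% downregulated. All 9 had higher estimates in Pool 2, with a median log2 fold change of 0.75 against 0.00 over all genes. Slc17a6 had the largest log2 fold change, 1.50 (SE 0.62, adjusted p = 0.584), followed by Tcf7l2 with 1.22 (SE 0.48, adjusted p = 0.567). The other calls were Rgs16 with 1.03 (SE 0.38, adjusted p = 0.530), Lef1 with 0.86 (SE 0.26, adjusted p = 0.479) and Plekhg1 with 0.57 (SE 0.23, adjusted p = 0.578). Zic1 (0.75, SE 0.39), Prkcd (0.68, SE 0.43), Rora (0.54, SE 0.31) and Ntng1 (0.51, SE 0.36) did not pass the threshold. None of the 9 genes had groups that did not overlap, where 1.05% of all genes did.

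These calls depended on the fit and on few mice. When only the Pool 2 and Control libraries were fitted, 1 of the 9 genes was upregulated (3.86% of all genes), Lef1, with a log2 fold change of 0.83 (edgeR, adjusted p = 0.715). Without Pool 2 replicate 4, the same gene alone was upregulated, with a log2 fold change of 0.48 (edgeR, adjusted p = 0.581), and the call of Slc17a6 was lost at 1.04 (adjusted p = 0.765). The count was 3 without Pool 2 replicate 2, 2 without Control replicate 1 and 3 without Control replicate 2. Upregulated genes made up 4.76% to 5.20% of all genes in these 4 fits. By an exact two-sided permutation test of log2 CPM over mice, 0 of the 9 genes passed 0.05, with Lef1 closest (p = 0.0556). With the 3 mice of highest mean level left out (Pool 2 replicates 2 and 4 and Control replicate 4, chosen after seeing the data), 2 genes were upregulated with edgeR, Tcf7l2 (0.78, adjusted p = 0.415) and Lef1 (0.45, adjusted p = 0.617), where 4.86% of all genes were, and the estimate of Zic1 was -0.026.

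In Pool 1 against Control, Zic1 alone was called, where 1.48% of all genes were upregulated and 1.99% downregulated. Zic1 was downregulated with a log2 fold change of -1.12 (SE 0.40, edgeR adjusted p = 0.917), a level 0.461 times that of Control. Its groups did not overlap, as for 0.861% of all genes, and the exact two-sided permutation p of 0.00794 is the smallest that 5 mice against 5 allow. The other 8 genes did not pass, among them Tcf7l2 with -0.95 (SE 0.50, adjusted p = 0.917) and Prkcd with -0.61 (SE 0.44, adjusted p = 0.920). Estimates were lower in Pool 1 for 8 of 9 genes, with a median log2 fold change of -0.34 against -0.01 over all genes, and those of Slc17a6, Ntng1 and Plekhg1 changed sign when single mice were left out. Leaving out Control replicate 2 made Tcf7l2 a further call (-1.11). Zic1 was downregulated in each of the 10 fits that left out 1 mouse, with log2 fold changes from -1.23 to -0.89.

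The pools were then compared with each other, to ask whether they differed in these genes. In Pool 2 against Pool 1, 7 of the 9 genes were upregulated and none downregulated, where 5.66% of all genes were upregulated and 1.16% downregulated. The 9 genes had a median log2 fold change of 1.29, against 0.02 over all genes. Tcf7l2 had the largest, 2.18 (SE 0.50, adjusted p = 0.210), a level 4.52 times that of Pool 1. Zic1 followed with 1.86 (SE 0.40, adjusted p = 0.196), and Lef1 had 1.26 with the smallest p-value (SE 0.26, adjusted p = 0.151). The other calls were Slc17a6 (1.58, SE 0.63), Rgs16 (1.37, SE 0.39), Prkcd (1.29, SE 0.44) and Rora (0.86, SE 0.31). Ntng1 (0.72, SE 0.36) and Plekhg1 (0.46, SE 0.23) did not pass.

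Tcf7l2, Lef1 and Zic1 were the 3 genes whose Pool 2 and Pool 1 values did not overlap, as for 1.41% of all genes, each with an exact two-sided permutation p of 0.00794. DESeq2 gave these 3 genes, and no other of the 9, an adjusted p under 0.05 (0.00748, 0.00399 and 0.00502), where it called 115 of 20257 genes (0.568%) at that threshold. They stayed upregulated with edgeR when any 1 mouse was left out, and when the 3 highest mice were left out together (log2 fold changes 1.07, 0.69 and 1.04, adjusted p = 0.172, 0.198 and 0.344). The calls of Prkcd, Rora and Slc17a6 were lost without Pool 2 replicate 4, which left 4 of 9 genes upregulated, against 5.63% of all genes.

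In Control against Vehicle, which differ by the presence of human sRNAs, none of the 9 genes was called, where 1.70% of all genes were upregulated and 3.41% downregulated. The estimates ran from -0.57 (Zic1, SE 0.39, adjusted p = 0.832) to 0.44 (Tcf7l2, SE 0.49, adjusted p = 0.926), with a median of 0.02 against -0.01 over all genes. No gene had groups that did not overlap, where 0.607% of all genes did. Tcf7l2 gave -0.21 without Control replicate 4, so its sign rested on that mouse. Pool 1 and Pool 2 were not tested against Vehicle.

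**Figure D3:**
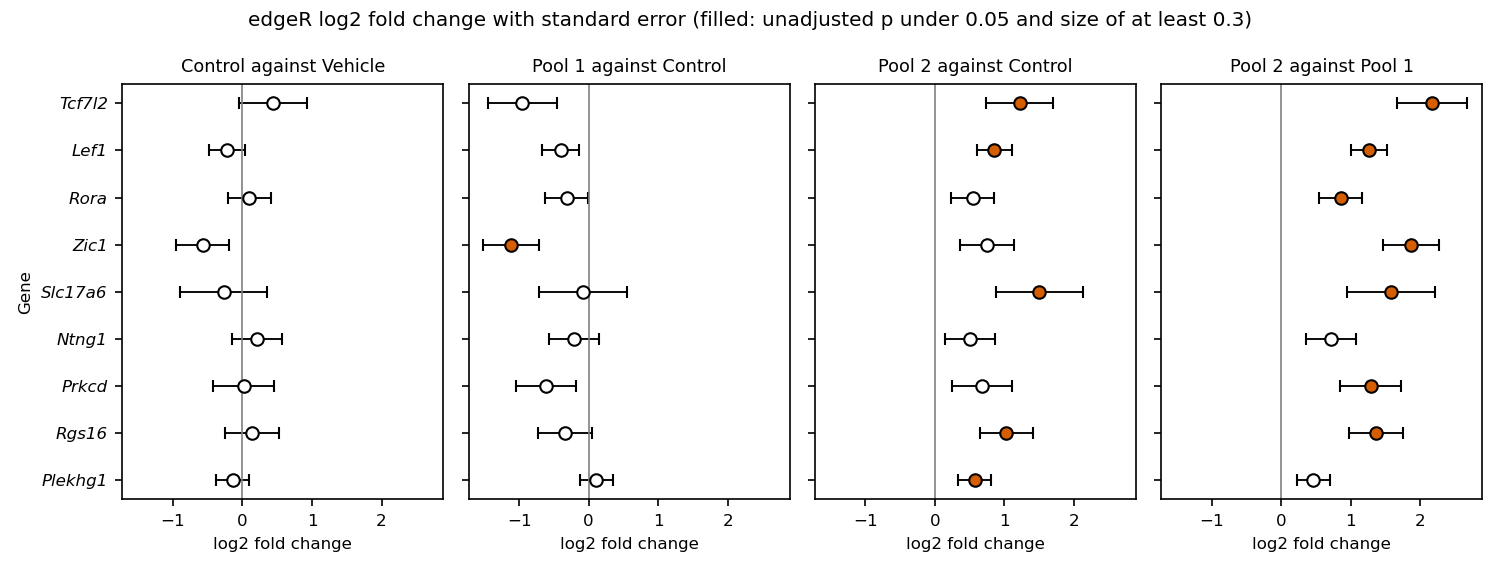
edgeR log2 fold change (points) with standard error (whiskers) of the 9 genes in the 4 comparisons, filled where the unadjusted p-value was under 0.05 and the size at least 0.3. Filled points number 0 in Control against Vehicle, 1 in Pool 1 against Control (Zic1), 5 in Pool 2 against Control and 7 in Pool 2 against Pool 1.

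Across the 20 mice, the 36 pairs of the 9 genes had a median Spearman rho of 0.54 and a median Pearson r of 0.68 for log2 CPM, and rho was positive for all 36 pairs, from 0.13 to 0.71. These correlations are given as a description, since the libraries share their group and several values from the same mice. After subtracting each group's mean the median rho was 0.50. Without Pool 2 replicates 4 and 2, the mice farthest from the median, it was 0.37 with 33 of 36 pairs positive, and without Control replicate 4 as well it was 0.28 with 29 of 36 positive. The pairing of the genes was thus weaker among the other mice. Tcf7l2 followed the mean of the other 8 genes most closely by Pearson r (r = 0.92, rho = 0.79), and without the 3 mice it still did (r = 0.74, rho = 0.66). By Spearman rho Lef1 was closest, with 0.80 over all mice and 0.67 without the 3. Prkcd (r = 0.64, rho = 0.47) and Plekhg1 (r = 0.69, rho = 0.36) followed least, and without the 3 mice their rho was 0.18 and 0.00.

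Syt2, the synaptotagmin gene that the study followed up, did not vary with the 9 genes. Its CPM was 26.7 ± 7.24 in Vehicle, 22.1 ± 2.80 in Control, 31.3 ± 7.96 in Pool 1 and 30.1 ± 10.7 in Pool 2 (SD, n = 5 each). Its log2 CPM had an r of 0.04 and a rho of 0.03 with the mean of the 9 genes over the 20 mice. Its highest value was 48.5 CPM in Pool 2.

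A list of 13 other genes with known thalamic expression, none of them among the 9, was highest in the same mice. The list, which holds Zic4 (overlapping Zic1), was chosen with earlier results of these data known and is no independent check. Its summed CPM was highest in Pool 2 replicate 4 (549), followed by Pool 2 replicate 2 (441) and Control replicate 4 (383), and the other 17 libraries lay between 234 and 322 CPM. Of the 13, 6 were upregulated and none downregulated in Pool 2 against Control, where 5.20% of all genes were upregulated and 1.01% downregulated. The median log2 fold change of the 13 was 0.52. Synpo2, an actin-binding protein gene, had 1.21 (SE 0.37, edgeR adjusted p = 0.479), and Tnnt1, a troponin gene expressed in thalamic neurons, had 1.66 (SE 0.66, adjusted p = 0.569). Amotl1 had 0.71 (SE 0.25, adjusted p = 0.512). Between the pools, 10 of the 13 were higher in Pool 2 by the same call, where 5.66% of all genes were, with a median of 1.31.

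In Pool 1 against Control, where 1.99% of all genes were downregulated, 3 of the 13 were called so, with a median of -0.48. Gbx2, a homeobox gene of the developing thalamus, was among them, but its Control level rested on replicate 4 (39 counts, 1.55 CPM). The other 4 Control libraries held 1 to 2 counts and the Pool 1 libraries 0 to 1, all under the floor of 3 counts, so no fold is given for it. Zic4 was the gene of this list that overlaps Zic1 (log2 fold change -0.85, SE 0.37, adjusted p = 0.917).

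By a fixed rule, the 10 genes whose log2 CPM followed the mean of the 9 most closely by Spearman rho over the 20 libraries were taken from 14788 genes with a mean of at least 1 CPM. They were Gm43398 (rho = 0.89), Camk2d (0.89), Grid2ip (0.88), Foxp2 (0.87), Patj (0.87), Synpo2 (0.87), Zfhx3 (0.86), Syt9 (0.86), Shox2 (0.84) and Amotl1 (0.82). Foxp2, Synpo2, Shox2 and Amotl1 were also on the list of 13. Of the 14788 genes, 598 (4.04%) had a rho above 0.5, as did 9 of the 13. The highest library was Pool 2 replicate 4 for 9 of the 10, and Vehicle replicate 2 for Syt9. The 10 were picked by likeness to a mean that was itself highest in Pool 2 replicate 4, so this was largely given by the choice. Shox2, a homeobox gene, ranged from 0.0448 to 18.9 CPM, and its lowest value lay under the floor of 3 counts.

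Markers of tissue around the thalamus were set beside these values, because they moved with part of the result. The habenula list (10 genes) was highest in Vehicle replicate 2 (151 CPM), then Pool 2 replicate 2 (98.9) and Control replicate 4 (96.0 CPM), while Pool 2 replicate 4 ranked 7 of 20 with 76.8 CPM. Of its 10 genes, 6 had a rho above 0.5 with the mean of the 9 genes. In Pool 2 against Pool 1, where 5.66% of all genes were upregulated, 3 of the 10 were, namely Pou4f1 (2.91), Chrnb4 (1.42) and Chrnb3 (1.22). Pou4f1 reached a count of 0 within Pool 1, so the size of its fold is uncertain. The leptomeninges list (10 genes) was highest in Pool 2 replicate 4 (196 CPM), its group ranges were 63.6 to 196 CPM in Pool 2 and 40.3 to 113 CPM in Pool 1, and 5 of its 10 genes were upregulated in that comparison. Col1a2, a collagen gene of meningeal fibroblasts, had a log2 fold change of 1.01 (SE 0.28, edgeR adjusted p = 0.277) there and 0.78 (SE 0.28, adjusted p = 0.521) against Control. None of the 10 leptomeningeal genes was at 0 in any library, and 7 of the 10 had a rho above 0.5 with the mean of the 9 thalamic genes. Their part in the result was not tested.

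The choroid plexus list was not high in the mice with the highest thalamic levels. It was at 180 CPM in Pool 2 replicate 4, 259 in Pool 2 replicate 2 and 122 CPM in Control replicate 4, ranks 13, 10 and 18 of 20, and 1 of its 11 genes (Otx2, 0.62) had a rho above 0.5. Without these 3 mice its rho values ran from 0.28 to 0.65. The directions between groups were in part those of the 9 genes. All 11 choroid genes had lower estimates in Pool 1 than in Control, with a median log2 fold change of -1.41. Between the pools, 10 of 11 had higher estimates in Pool 2 than in Pool 1, with a median of 1.06, whereas 10 of 11 were lower in Pool 2 than in Control. Control replicate 3 (2354 CPM) and Pool 2 replicate 3 (1539 CPM) lay far above their group medians of 188 and 180 CPM. The Pool 1 median was 160 CPM, so the medians of the sums in Control, Pool 1 and Pool 2 lay close together, while that of Vehicle was 816 CPM. The part of the choroid plexus in the result was not tested. Otx2, past the threshold, had a log2 fold change of -1.27 (SE 0.60, adjusted p = 0.917) in Pool 1 against Control and 1.46 (SE 0.60, adjusted p = 0.5) in Pool 2 against Pool 1. Leaving out the choroid-rich Vehicle replicate 4 and the microglia-rich Pool 2 replicate 1 together raised the count of upregulated thalamic genes to 7 of 9 in Pool 2 against Control (3.38% of all genes) and to 9 in Pool 2 against Pool 1 (3.91%). Leaving out Pool 2 replicate 1 alone, a mouse with low thalamic levels, gave the same 7 and 9 (3.31% and 3.67% of all genes).

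Markers of CA1 pyramidal neurons were low in the mice with high thalamic levels. They summed to 562 CPM in Pool 2 replicate 4, 533 in Control replicate 4 and 491 in Pool 2 replicate 2, ranks 17, 18 and 19 of 20. The lowest, 481 CPM, was Pool 1 replicate 1, whose mean of the 9 genes ranked 15. Of the 6 CA1 genes, 5 had a rho below -0.5 with the mean of the 9 genes, as did 538 of the 14788 genes (3.64%). None of the 6 was called in any of the 4 comparisons. Wfs1, a CA1 marker, had a log2 fold change of -0.43 (SE 0.31, adjusted p = 0.782) and Mpped1 of -0.38 (SE 0.22, adjusted p = 0.690) in Pool 2 against Pool 1. For dentate granule cells, Control replicate 4 (665 CPM) and Pool 2 replicate 2 (599 CPM) ranked 2 and 3, but Pool 2 replicate 4 (419 CPM) ranked 8. The highest was Pool 1 replicate 1 (711 CPM), a mouse with low thalamic levels. Of the 6 dentate genes, 3 (Prox1, Dsp and Tdo2) had a rho above 0.5, and 0 of the 6 was called in the comparisons of the pools with Control or each other. How much tissue of each region entered a library cannot be read from these values, and its part in the result was not tested.

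**Figure D4:**
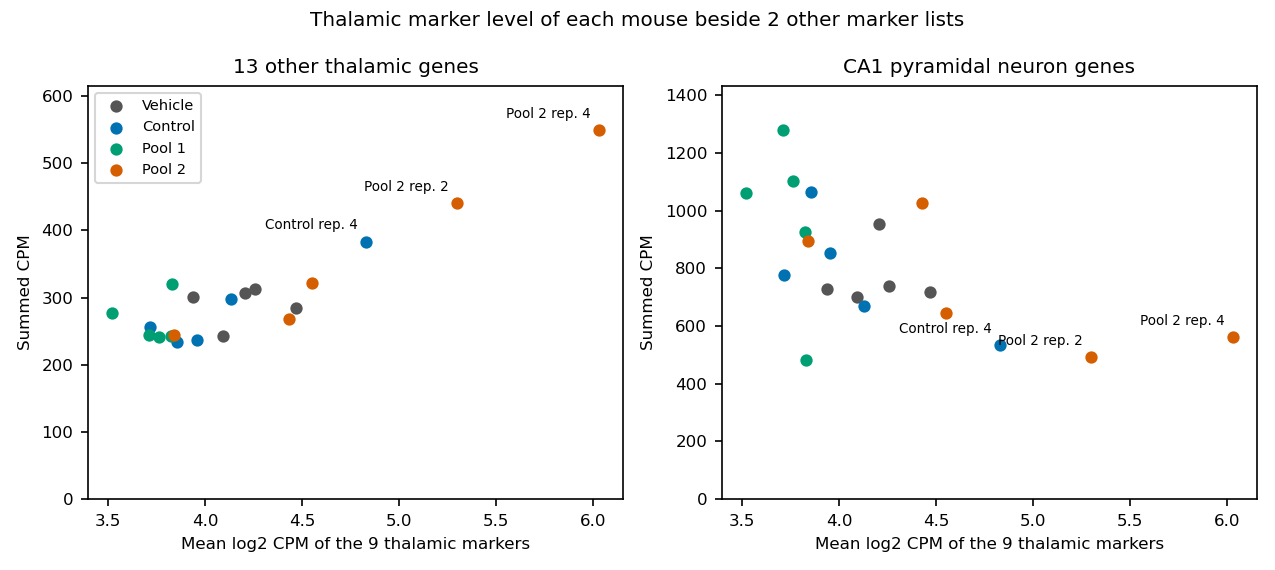
Mean log2 CPM of the 9 thalamic marker genes in each mouse (horizontal axis) against the summed CPM of 13 other thalamic genes (left) and of 6 CA1 pyramidal neuron genes (right), with points coloured by group. Pool 2 replicates 4 and 2 and Control replicate 4 are highest on both thalamic measures and lie between 491 and 562 CPM for the CA1 genes.

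For brain endothelium, oligodendrocytes, microglia and Cajal-Retzius cells, no gene had a rho above 0.5 with the mean of the 9 genes. In the subiculum and neocortex list 2 of 8 did (Rorb, 0.63; Cux2, 0.55), and in the striatum list 1 of 8 (Drd1, 0.62) while Penk was at -0.62. In Pool 2 against Control, where 5.20% of all genes were upregulated, 3 of 8 endothelial genes were (Pecam1, 0.51; Cdh5, 0.48; Tek, 0.39) and 3 of 8 microglial genes (Csf1r, 0.51; Cx3cr1, 0.35; C1qa, 0.93). In the comparison of Pool 2 with Pool 1, where 5.66% of all genes were upregulated, 6 of 8 microglial genes were and 1 of 8 endothelial genes (Pecam1, 0.34). Both lists were highest in Pool 2 replicate 1, a mouse with low thalamic levels, while Pool 2 replicate 4 ranked 19 of 20 for microglia. Oligodendrocyte genes, among them the myelin gene Mbp, had none called in any of the 4 comparisons. Neither the Cajal-Retzius genes (Reln and Ndnf the most abundant) nor the striatal genes (Ppp1r1b and Penk) had one called in a pool against Control. Between the pools, Lhx1 (1.15) and Lhx5 (1.07) of the Cajal-Retzius list and Drd1 (0.71) of the striatum list were upregulated in Pool 2. In Control against Vehicle, where 3.41% of all genes were downregulated, Trp73 (-0.52) and Cacna2d2 (-0.39) of the Cajal-Retzius list were. So were 2 of 8 genes of the striatum list, among them Drd2 (-0.69), and the other is not named here. Lhx1, Lhx5, Drd1, Trp73, Cacna2d2, Drd2, Rorb, Cux2 and the habenular and dentate genes were named after their values were seen, and their part in the result was not tested. Of the subiculum and neocortex list, Fn1 was upregulated (0.74) and Lamp5 downregulated (-0.45) in Pool 2 against Control.

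**Figure D5:**
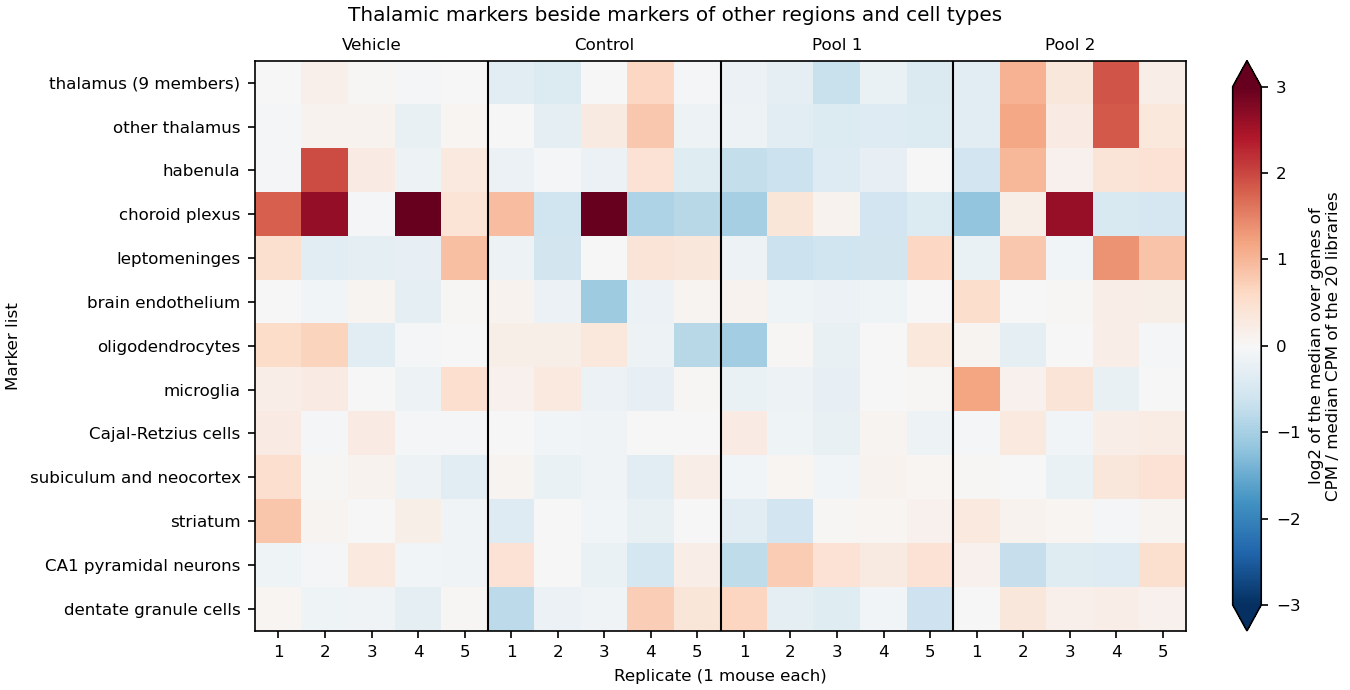
Marker lists (rows) in the 20 mice (columns), coloured by log2 of the median over a list's genes of CPM over the gene's median CPM, with values beyond 3 shown at the end of the scale. The 9 thalamic genes and the 13 other thalamic genes are high in Pool 2 replicates 4 and 2 and in Control replicate 4, whereas the choroid plexus list is highest in Vehicle replicate 4.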

How the data were processed

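Poly(A)-selected RNA of mouse hippocampus was sequenced as 50 nt single-end reads from stranded libraries. The authors used STAR for alignment to GRCm38 and for counting by GENCODE M20, and deposited raw counts, with 2 sequencing rounds per library already summed. Genes with a total count under 10 had been removed. Here counts were normalized by TMM, given as CPM, and tested in edgeR 4.0.16 (glmQLFit with robust estimation and glmQLFTest, R 4.3.3) in 1 fit of the 4 groups. No further filter was used. Log2 CPM used a prior count of 2. Exact permutation tests were two-sided. DESeq2 1.42.0 and other settings were alternatives. GENCODE M21 gave exons and transcript lengths, and all 9 spans matched those deposited. Correlations were planned with permutation p-values, which were left out because the genes were chosen with earlier results of these data known. The same holds for all marker lists. Named genes were the 9, Syt2, the 10 genes with the most similar pattern, and from each other list up to 4 past the threshold in a pool against Control (otherwise the 2 most abundant). Some genes that these lists hold are not reported here. Zic4, Foxp2 and Shox2 were discussed with them. Steps were tested on simulated counts. Totals of 20588280 to 25543939 counts limit precision for the lowest genes.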

Additional observations from a re-analysis of the deposited data

Results flagged for a closer look

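Of the 40 groups of 5 values examined (9 thalamic genes and Syt2 in 4 groups), 1 held a library set apart from the others by a gap larger than Dixon's 95% critical value of 0.71, where chance flags about 1 group in 20. Tcf7l2 was at 22.1 CPM in Control replicate 4 while the next highest Control value was 6.49 CPM, a gap of 0.904 of the group's range. The same mouse had 60.0 CPM of Ntng1, the highest Control value for that gene.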

How the results depend on the processing

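Calls were recomputed with DESeq2, other scaling, filters and spread estimates, only the groups compared, a replicate block, and without single or several mice. In Pool 1 against Control, 2 genes were downregulated with DESeq2 (1.59% of all genes tested) and with the default estimate of the spread (2.05%). The count was 1 to 2 when single mice were left out (1.58% to 3.05%). For Pool 2 against Control, 1 gene was upregulated when only the groups compared were fitted (3.86% of all genes) and 0 by the exact permutation test. The count was 2 without the 3 highest mice (4.86%) and 1 to 7 when single mice were left out (3.31% to 5.7%). The exact test was run only on the listed genes and Syt2, so no share is given for it. For Pool 2 against Pool 1, 3 genes had an adjusted p under 0.05 with DESeq2 (0.568% of genes given one). Upregulated genes numbered 3 by the exact permutation test or without the 3 highest mice (5.28% of all genes in that fit). They numbered 4 to 9 when single mice were left out (3.67% to 6.49%). No other setting moved a count of calls by over 1.5 times.

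Some estimates changed sign. Without the 3 highest mice (chosen after seeing the data), Pool 1 against Control gave 0.25 for Slc17a6 and 0.13 for Ntng1, Pool 2 against Control gave -0.026 for Zic1 (0.75 with all mice), and Control against Vehicle gave -0.20 for Tcf7l2, -0.086 for Prkcd, -0.062 for Rora, -0.10 for Ntng1 and -0.019 for Rgs16. The exact test gave -0.15 for Prkcd in Control against Vehicle. With single mice left out, Pool 1 against Control ran from -0.35 to 0.24 for Slc17a6, -0.36 to 0.11 for Ntng1 and -0.019 to 0.24 for Plekhg1. Control against Vehicle ran from -0.21 to 0.60 for Tcf7l2, -0.12 to 0.24 for Prkcd, -0.073 to 0.21 for Rora, -0.58 to 0.20 for Slc17a6, -0.11 to 0.43 for Ntng1 and -0.026 to 0.24 for Rgs16. The cause of these changes was not tested.

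Median rho of the 36 gene pairs was 0.37 without the 2 farthest mice, 0.28 without the 3 highest, and 0.21 within groups without them. For Syt2 and the mean of the 9 genes, rho was -0.075 without the 2 farthest mice and 0.20 within groups without the 3 highest. Over 18 libraries, 1 gene in Control replicate 4 was above 2 times its median instead of 2.

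Equal replicate numbers did not pair the mice (correlations of deviations from group means from -0.38 to 0.30, and 2 of 20 libraries closest to their own number). With the replicate block, 5 genes were upregulated in Pool 2 against Control (4.72% of all genes) and 8 in Pool 2 against Pool 1 (5.16%). In that fit Prkcd gave -0.081 in Control against Vehicle.

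Depth limits Gbx2, which lay under the floor of 3 counts in every Vehicle and Pool 1 library, whereas Lef1, the lowest of the 9 genes, had a mean of 5.58 CPM. It also limits Pou4f1, with no counts in part of Pool 1, and Shox2, whose lowest value lay under that floor.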
